A study of Mus musculus with 30 samples.

Results

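Transcripts of 10 genes that write, read or erase methylation of lysine 9 of histone H3 (H3K9), or work beside these proteins, were followed in 30 single primordial germ cells (PGCs). The genes were *Ehmt1*, *Ehmt2*, *Setdb1*, *Trim28*, *Daxx*, *Cbx1*, *Cbx3*, *Cbx5*, *Kdm3a* and *Hdac1*, chosen by name, and all 10 are among the 18194 genes that the arrays name. Every probe set listed for them was used, 26 of 45101. The cells came from C57BL/6 embryos at E7.25-E7.5 with *Prdm14*+/- parents. They were picked one by one from the base of the allantois bud, kept if *Prdm1*-positive by PCR, and hybridised to 1 Affymetrix mouse array each after cDNA amplification. By their deposited labels, 13 cells were WT (*Prdm14*+/+), 13 het (*Prdm14*+/-) and 4 KO (*Prdm14*-/-). By the array codes the cells were hybridised in 3 runs: 10 WT cells in run 1, 3 WT and 7 het cells in run 2, and 6 het cells with all 4 KO cells in run 3. No run held both WT and KO cells. The labels name no embryo, so each label counts as 1 sample. SDs below are over cells, and no test was possible.

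EHMT1 (GLP) and EHMT2 (G9a) form the complex that mono- and dimethylates H3K9 in euchromatin, and KDM3A removes these marks. SETDB1, brought to repeats by TRIM28 (KAP1), trimethylates H3K9. The HP1 proteins CBX1, CBX3 and CBX5 bind methylated H3K9, DAXX deposits histone H3.3 in heterochromatin, and HDAC1 deacetylates histones. Mouse PGCs lose dimethylated H3K9 (H3K9me2) soon after they are specified, and PRDM14 is needed for their epigenetic reprogramming. The arrays measured transcripts, not the marks themselves.

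Values are log2 of the model-based expression index (MBEI) of each probe set. Values under 6 (64 MBEI) were set to 6 for means and differences, and values at this floor have no order. Lowest, median and highest values are given as deposited, where 0 is how a probe set without signal is listed. Between 58.9% and 69.6% of an array's probe sets were at 0 (mean 63.7%). The number of arrays limits the precision. Levels of different probe sets are not compared.

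*Prdm14*, the targeted gene, ran against the labels. It ranged from 10.03 to 12.15 (mean 11.40) in the 4 cells labelled KO, from 0 to 11.79 (mean 9.70) in the 13 labelled het, and from 0 to 10.44 (mean 7.40) in the 13 labelled WT. Cells at or below the floor numbered 0 in KO, 1 in het and 7 in WT. *Dppa3*, a PGC gene, followed the same order, with means of 12.55 ± 0.38 (SD, n = 4), 10.23 ± 2.87 (SD, n = 13) and 9.05 ± 2.01 (SD, n = 13). The authors report *Dppa3* as lower in *Prdm14* KO PGCs by microarray and PCR, the reverse of this order. The position of the *Prdm14* probe set relative to the deletion was not checked here. Mislabelled cells and a transcript still detected from the targeted allele were therefore not told apart. Why *Prdm14* was at the floor in cells labelled WT was not tested. Directions below therefore refer to the labels only. The 9 measured PGC markers were *Prdm1*, *Prdm14*, *Tfap2c*, *Dppa3*, *Kit*, *Dnd1*, *Alpl*, *Ifitm3* and *Itgb3*. Of these 9, 8 were above the floor in every cell labelled KO, and *Prdm1* was above it in all 30 cells. Somatic mesoderm transcripts were also present, since 12 of 14 measured markers passed the floor in at least 1 cell labelled WT. The mean over these 14 genes lay between 8.18 and 9.58 in cells labelled WT, 7.77 and 9.76 in those labelled het, and 8.14 and 9.69 in those labelled KO. *Lefty2* and *Tbx4* were at the floor in every cell.

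The promoters of *Ehmt1*, *Cbx5* and *Kdm3a* are shown first, since the first 2 varied together and all 3 varied with the germ cell markers, as *Trim28* and *Ehmt2* also did. Each is 300 bases around the most upstream start in RefSeq (GRCm38.p6), most of it before the start, in the direction of transcription. Capitals mark the GC box GGGCGG, read on both strands.
Ehmt1, chr2:24919560-24919859, minus strand: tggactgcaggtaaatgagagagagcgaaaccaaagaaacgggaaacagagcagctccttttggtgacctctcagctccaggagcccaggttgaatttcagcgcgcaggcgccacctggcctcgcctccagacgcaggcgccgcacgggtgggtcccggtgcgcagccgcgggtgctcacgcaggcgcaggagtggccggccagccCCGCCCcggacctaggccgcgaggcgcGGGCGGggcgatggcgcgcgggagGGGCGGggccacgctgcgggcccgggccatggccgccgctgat
Cbx5, chr15:103239803-103240102, minus strand: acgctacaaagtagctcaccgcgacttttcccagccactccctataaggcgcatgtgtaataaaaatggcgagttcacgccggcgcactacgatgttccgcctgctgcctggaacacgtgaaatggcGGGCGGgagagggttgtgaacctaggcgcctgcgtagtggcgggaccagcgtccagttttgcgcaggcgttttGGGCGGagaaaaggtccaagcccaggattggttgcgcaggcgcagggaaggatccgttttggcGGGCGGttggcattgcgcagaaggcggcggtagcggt
Kdm3a, chr6:71632868-71633167, minus strand: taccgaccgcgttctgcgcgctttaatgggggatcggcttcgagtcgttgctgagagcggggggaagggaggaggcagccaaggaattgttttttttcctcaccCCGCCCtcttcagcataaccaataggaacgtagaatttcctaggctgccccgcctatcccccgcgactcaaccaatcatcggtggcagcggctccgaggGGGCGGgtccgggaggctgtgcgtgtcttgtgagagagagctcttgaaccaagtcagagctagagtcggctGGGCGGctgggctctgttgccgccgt
Each of these 3 windows holds 3 GC boxes. All 9 member genes with a promoter in the table hold at least 1, compared with 35.9% of 27025 promoters. The median GC content was 64.0% over these 9 and 52.7% over all promoters, and no comparison at equal GC content was made. The ratio of observed to expected CpG had a median of 0.878 over the 9, with a range of 0.703 (*Setdb1*) to 1.09 (*Cbx5*), compared with 0.389 over all promoters. The CCAAT box CCAAT was in 4 of 9 (38.0% of all), the E2F-like TTCCCGC in 1 of 9, *Trim28* (4.67% of all). The TATA box TATAAA (14.2% of all) and the AP-2 site GCCNNNGGC (16.5% of all) were in 0 of 9. A match of letters is a description and not a binding site. *Hdac1* is named only.

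Of the 26 probe sets, 10 were above the floor in all 30 cells and 6 in none. *Ehmt1*, *Daxx*, *Kdm3a* and *Hdac1* have 1 probe set each, and *Ehmt2*, *Setdb1* and *Trim28* were each represented by their brightest of 2, 3 and 2. Both *Trim28* probe sets passed the floor in 30 cells and varied together (r = 0.89, n = 30). The brightest *Cbx1* pair did as well (r = 0.95), while the next *Cbx1* probe set, above the floor in 18 cells, did not follow them (r = 0.34 with each). The probe sets of *Cbx5* disagreed. The brightest was above the floor in 30 cells, the others in 24, 19, 0 and 0, and its correlation with the next brightest was 0.11 and 0.33. Statements on *Cbx1* and *Cbx5* below rest on the brightest probe set of each unless another is named.

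**Figure D1:**
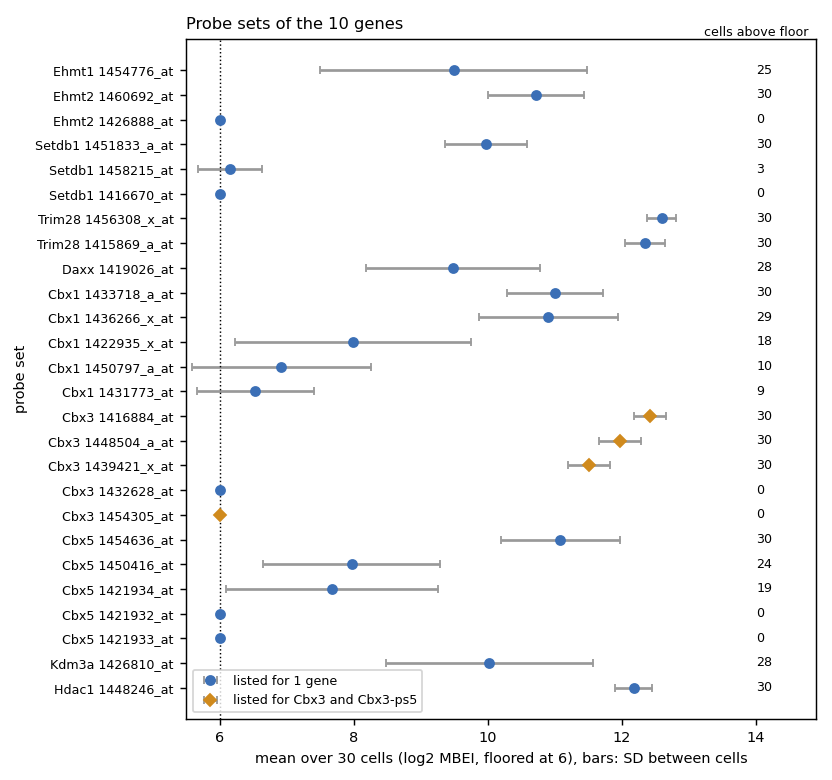
Mean level over 30 cells (log2 MBEI, floored at 6) of each of the 26 probe sets, bars giving the SD between cells and the numbers at the right the cells above the floor. The same gene can have probe sets at the floor in all cells and others above it in all 30, as for *Ehmt2*, *Setdb1* and *Cbx5*.

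*Cbx3*, which encodes HP1 gamma, could not be measured by name. Its only probe set listed for 1 gene was at or below the floor in all 30 cells, with a highest value of 5.95. The other 4 are listed for *Cbx3* and its pseudogene *Cbx3-ps5* together, and the signal of one or the other cannot be told apart. Of these, 3 were above the floor in all 30 cells and varied together (r = 0.97 to 0.996). The brightest ranged from 11.82 to 12.82 with a median of 12.46, and its means were 12.46 ± 0.20 (SD, n = 13) in cells labelled WT, 12.39 ± 0.30 (SD, n = 13) in het and 12.36 ± 0.18 (SD, n = 4) in KO. These groups overlapped. The counts below therefore cover 9 members.

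The 9 members split by spread. *Trim28* and *Hdac1* were present at nearly the same level in every cell, with SDs of 0.21 and 0.28 over 30 cells, against a median SD of 0.26 over genes with a mean of at least 12. *Trim28* ranged from 11.90 to 13.05 and *Hdac1* from 11.38 to 12.57. *Setdb1*, *Cbx1*, *Ehmt2* and *Cbx5* had SDs of 0.62, 0.72, 0.72 and 0.89 and were above the floor in all 30 cells. *Daxx* (1.30, above the floor in 28 cells) and *Kdm3a* (1.54, 28 cells) varied more. *Ehmt1* varied most, with an SD of 1.99 and 25 cells above the floor, and 95.4% of the 5290 genes with a mean of at least 8 had a smaller SD (median 1.32). The partners of one enzyme complex differed in spread, *Ehmt1* from 0 to 12.29 and *Ehmt2* from 8.45 to 11.75. For *Ehmt1* the SD was 1.98 after the mean of each label and run was removed.

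**Figure D2:**
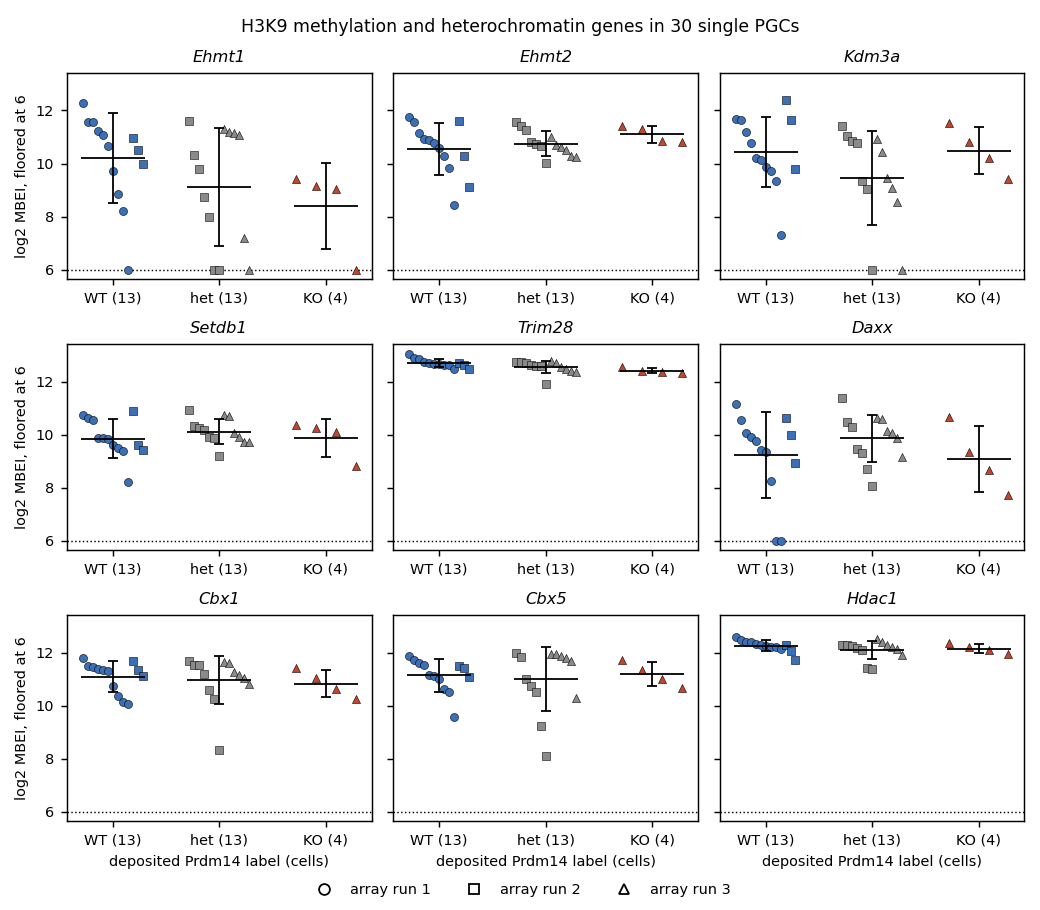
Level of 9 member genes in each cell (log2 MBEI, floored at 6, dotted line) by deposited label, with the mean and SD as lines and the array run as symbol. *Trim28* and *Hdac1* are narrow bands near 12 to 13, and *Ehmt1* spreads from the floor to 12.29.

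*Ehmt1* had its highest mean in cells labelled WT. The 13 cells labelled WT had a lowest value of 0, a median of 10.67 and a highest of 12.29. The 13 labelled het had 0, 9.80 and 11.59. The 4 labelled KO had 0, 9.04, 9.15 and 9.41. The groups overlapped, but no cell labelled KO reached the WT median. *Ehmt1* was at or below the floor in 5 cells, 1 labelled WT (run 1), 3 het (2 of run 2, 1 of run 3) and 1 KO. The mean in cells labelled KO lay below that in WT by a difference of -1.80 (pooled SD 1.68). The mean of 9 germ cell markers also differed by label, at 11.67 ± 0.36 (SD, n = 4) in KO, 9.72 ± 0.91 (SD, n = 13) in WT and 9.63 ± 1.33 (SD, n = 6) in het of run 3. The 9 include *Prdm14* and *Dppa3*, whose order by label is given above, so this difference partly repeats theirs. Each of the 9 had a higher mean in KO than in WT. *Ehmt1* and *Trim28* ran against the mean of the 9 markers over the cells and *Ehmt2* with it. The part of this marker mean in the label differences was not tested. Within run 3 the difference between KO and het was -1.25 (pooled SD 2.14), and the 6 cells labelled het fell into 4 between 11.08 and 11.32 and another 2 at 7.18 and 4.33, with 3 of the cells labelled KO between these. Within run 2 the difference between het and WT was -1.84 (pooled SD 1.86). A fit with the run as a block gave -3.09 for KO minus WT. That is the sum of the 2 within-run differences, so only 3 WT cells, those of run 2, enter it. The cell labelled KO at 0 carried much of the difference. Without it, KO minus WT was -1.0 and KO minus het in run 3 was -0.45.

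*Ehmt2* went the other way by smaller amounts. The 4 cells labelled KO were at 10.80, 10.84, 11.32 and 11.43, the 6 labelled het of run 3 between 10.23 and 11.02, and the 13 labelled WT between 8.45 and 11.75 (median 10.79). The difference between KO and WT was 0.54 (pooled SD 0.88), within the spread. Within run 3 it was 0.53 (pooled SD 0.31), larger than the spread, with 1 het cell inside the KO range.

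*Kdm3a*, the H3K9me1/2 demethylase, had no stable direction between labels. Cells labelled WT ranged from 7.31 to 12.40 (median 10.22), het from 0 to 11.40 (median 9.46), and the 4 KO cells were at 9.43, 10.20, 10.80 and 11.51. KO minus WT was 0.04 (pooled SD 1.26). Within run 3, KO minus het was 1.40 (pooled SD 1.48), and within run 2, het minus WT was -1.51 (pooled SD 1.77). The latter was -0.95 without the brightest WT cell of run 2. Each of these was within the spread between cells. The het cells included 1 at 0 in run 2 and 1 at 0 in run 3, and the differences without them were not computed.

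Among the H3K9me3 genes, *Setdb1* differed by 0.03 between KO and WT (pooled SD 0.72). *Trim28* was lower in cells labelled KO by -0.30 (pooled SD 0.15) with cells labelled KO at 12.31, 12.37, 12.39 and 12.53 and WT from 12.47 to 13.05 (median 12.67). Only 1 cell labelled KO lay inside the WT range. Within run 3 the difference was -0.13 (pooled SD 0.15), within the spread. *Daxx* differed by -0.14 between KO and WT (pooled SD 1.55) and by -0.98 between KO and het of run 3 (pooled SD 0.87), with 3 of the 4 KO cells (7.73, 8.65, 9.33 and 10.67) below the run 3 het median of 10.10. Without the cell at 7.73 it was -0.53, within the spread, and without the cell at 10.67 it was -1.51.

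By their brightest probe sets, the HP1 genes *Cbx1* and *Cbx5* differed by less than 1 in all 3 comparisons within or across runs. *Cbx1* differed by -0.27 (pooled SD 0.57) between KO and WT and by -0.43 (pooled SD 0.39) between KO and het of run 3, where KO cells were at 10.25, 10.63, 11.03 and 11.40 and het cells from 10.83 to 11.64. Without the KO cell at 10.25 the latter was -0.24, within the spread. The *Cbx1* probe set above the floor in 18 cells went the other way, with means of 7.55 in WT, 8.15 in het and 8.83 in KO. The remaining *Cbx1* probe sets had lower means in KO than in WT, as the brightest did. With all *Cbx1* probe sets averaged, KO minus WT was 0.01 and het minus WT in run 2 was 0.37. *Cbx5* differed by 0.05 (pooled SD 0.58) and -0.40 (pooled SD 0.58). Within run 2, *Cbx5* was lower in het than WT by -0.84 (pooled SD 1.20), with het cells from 8.12 to 11.97 and WT cells at 11.07, 11.40 and 11.51. In the fit with the run as a block, the KO and WT difference was -1.09 for *Cbx1*, -1.25 for *Cbx5*, -1.17 for *Daxx* and 1.11 for *Ehmt2*. *Hdac1* differed by -0.11 (pooled SD 0.21), -0.09 (pooled SD 0.20) and -0.04 (pooled SD 0.38) in the 3 comparisons.

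Counts of members that differed by 1 or more are set beside those over all 5290 genes with a mean of at least 8. With only 9 members, these counts do not set the members apart from all genes. Between KO and WT, 0 of 9 were higher by at least 1 (13.5% of all genes) and 1 of 9, *Ehmt1*, was lower (8.32%). Between KO and het of run 3, 1 of 9, *Kdm3a*, was higher (15.2%) and 1 of 9, *Ehmt1*, was lower (10.1%). Between het and WT of run 2, 0 of 9 were higher (10.8%) and 2 of 9, *Ehmt1* and *Kdm3a*, were lower (15.4%). The median difference over the 9 members was -0.11, -0.27 and -0.18, beside 0.13, 0.11 and -0.09 over all genes. The mean over the 9 members differed by -0.22 (pooled SD 0.43), -0.18 (pooled SD 0.40) and -0.49 (pooled SD 0.36). The last was -0.27 without the WT cell of run 2 that was brightest in *Kdm3a*, and -0.17 over all runs. The first and second comparisons share the cells labelled KO.

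**Figure D3:**
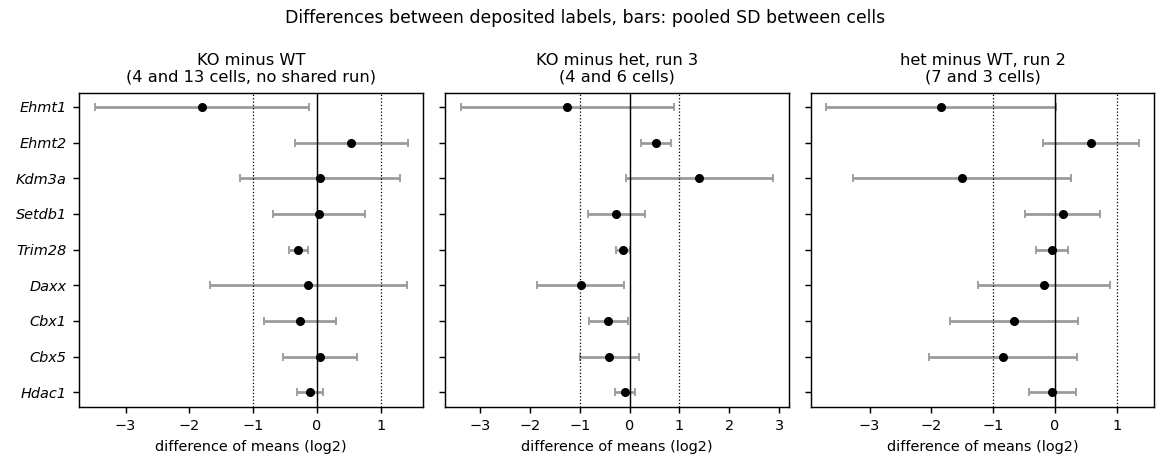
Difference of mean log2 MBEI of 9 members in 3 comparisons of deposited labels, points giving the difference and bars the pooled SD between cells, with dotted lines at -1 and 1. *Ehmt1* lies below -1 in all 3, with bars that reach near or past 0.

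The members did not vary together as a group. Over the 30 cells, the 36 pairs of 9 members had a median Pearson correlation of -0.03, with a range of -0.32 to 0.68, beside 0.01 over all pairs of the 5290 genes. A correlation of at least 0.4 was found in 3 pairs, *Ehmt1* with *Cbx5*, *Cbx1* with *Cbx5* and *Ehmt1* with *Trim28*, and 3.72% of all gene pairs reached it. Without the 2 cells farthest from the median of the first gene, r for these 3 was 0.67, 0.09 and 0.39. Their Spearman values were 0.67, 0.18 and 0.45. All points share the array, the amplification and the label and run, so these are descriptions.

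*Ehmt1* and *Cbx5* were the closest pair (r = 0.68, Spearman 0.67, n = 30). The correlation was 0.71 after the means of label and run were removed, and 0.88, 0.88 and 0.49 within runs 1, 2 and 3 (n = 10 each). Of all gene pairs, 0.073% reached 0.68. The other *Cbx5* probe sets followed *Ehmt1* less, at 0.17 and 0.32. *Ehmt1* and *Ehmt2*, which act in one complex, had r = -0.31, and *Setdb1* and *Trim28* had r = -0.003. *Cbx1* with *Cbx5* was 0.49 over 30 cells, but -0.57 in run 1, 0.86 in run 2 and 0.51 in run 3.

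**Figure D4:**
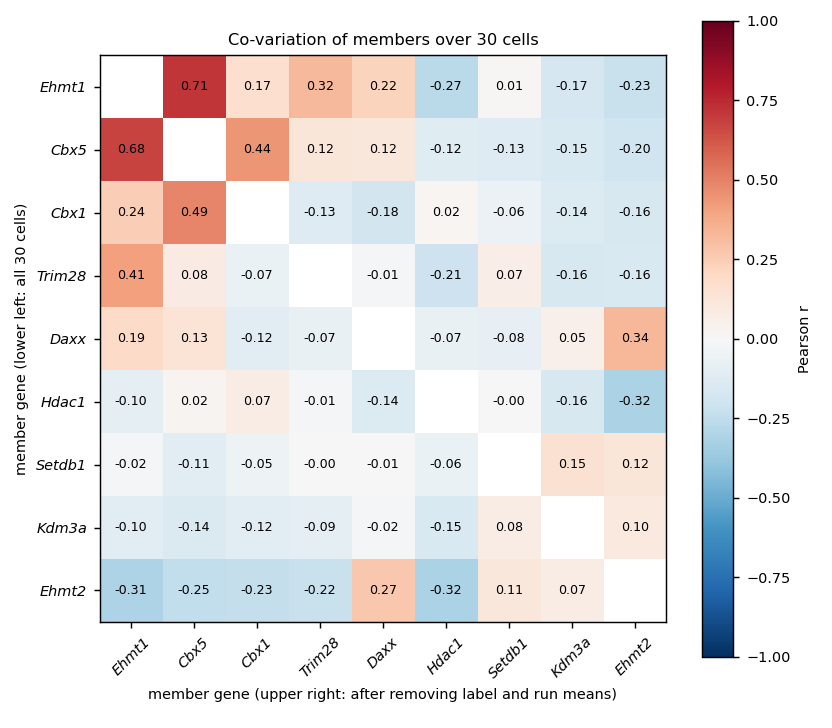
Pearson correlation of 9 members over 30 cells (lower left) and after removing the mean of each label and run (upper right). *Ehmt1* and *Cbx5* reach 0.68 and 0.71, and most other pairs lie near 0.

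Of the 9 members, 5 varied with the germ cell markers, *Ehmt1*, *Trim28* and *Cbx5* in one direction and *Kdm3a* and *Ehmt2* in the other. The germ cell score, the mean of the 9 measured PGC markers in a cell, ranged from 7.34 to 11.93. Its correlation with *Ehmt1* was -0.51 (Spearman -0.61, n = 30), with *Cbx5* -0.45 (Spearman -0.53), with *Trim28* -0.49 (Spearman -0.58), and with *Kdm3a* 0.57 (Spearman 0.40) and *Ehmt2* 0.42 (Spearman 0.46). Thus 3 of 9 members were at or below -0.4 and 2 at or above 0.4, beside 6.99% and 7.01% of all genes. *Setdb1*, *Daxx*, *Cbx1* and *Hdac1* lay between -0.33 and 0.21.

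For these 5 genes, each by the probe set that stood for it, the sign held in each run. *Ehmt1* had r = -0.48, -0.59 and -0.43 in runs 1 to 3, *Cbx5* -0.34, -0.62 and -0.57, *Trim28* -0.33, -0.46 and -0.54, *Kdm3a* 0.25, 0.65 and 0.78, and *Ehmt2* 0.49, 0.53 and 0.41 (n = 10 each). Without the 2 cells farthest from the median score, r was -0.52 for *Ehmt1*, -0.44 for *Cbx5*, -0.51 for *Trim28*, 0.49 for *Kdm3a* and 0.44 for *Ehmt2*. With single markers, r ranged from -0.46 to -0.26 for *Ehmt1*, from -0.51 (*Dppa3*) to -0.08 (*Alpl*) for *Cbx5*, and from 0.09 (*Itgb3*) to 0.58 (*Kit*, a receptor of migrating PGCs) for *Kdm3a*. Both cells in which *Kdm3a* was listed at 0 were among the 3 with the lowest germ cell scores, at 7.34 and 7.76. Of these, 1 was in run 3 and 1 in run 2, the runs with the higher r for *Kdm3a*. The 2 cells left out above had scores of 7.34 and 7.62, so the *Kdm3a* cell at 7.76 was kept. The correlation of *Kdm3a* without both of its cells at 0 was not computed. The members described here were picked after their values were seen.

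Other measures moved with some of these. The share of probe sets above the floor on an array had r = 0.47 with *Cbx5*, 0.29 with *Ehmt1* and -0.16 with *Kdm3a*. The somatic mesoderm score had r = 0.40 with *Cbx5*, 0.25 with *Ehmt1* and -0.07 with *Kdm3a*. The difference between the 5' and 3' *Gapdh* control probe sets had r = 0.40 with *Ehmt1* and 0.44 with *Trim28*, and its mean was -0.26 ± 0.20 (SD, n = 13) in cells labelled WT, -0.48 ± 0.21 (SD, n = 13) in het and -0.66 ± 0.36 (SD, n = 4) in KO. Their part in the results was not tested. The *Cbx5* probe sets that were above the floor in 24 and 19 cells had r = -0.04 and -0.32 with the germ cell score. Neither kept its sign over runs 1 to 3. The former had r = -0.76, 0.56 and -0.27, the latter -0.70, 0.13 and -0.57.

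**Figure D5:**
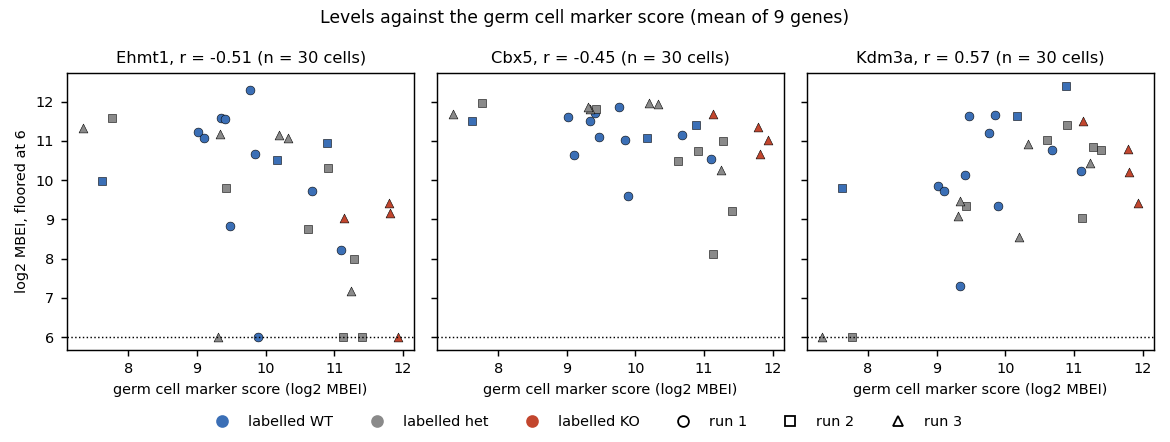
Level of *Ehmt1*, *Cbx5* and *Kdm3a* in each of 30 cells (log2 MBEI, floored at 6) against the germ cell score (mean of 9 markers, log2 MBEI), coloured by label with the run as symbol. *Ehmt1* and *Cbx5* are lower and *Kdm3a* is higher in cells with a high score (r = -0.51, -0.45 and 0.57).

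Among all genes with a mean of at least 8, the gene most like each member over the 30 cells was *Smad4*, the common SMAD of BMP and TGF-beta signalling, for *Cbx5* (r = 0.80), *Pcbp2* for *Ehmt1* (0.77), *Psme1* for *Kdm3a* (0.77), *Atp5j* for *Cbx1* (0.76), *Oaz1* for *Trim28* (0.72), *Dvl2* for *Ehmt2* (0.71), *Ints1* for *Hdac1* (0.69), *Cep44* for *Daxx* (0.67) and *Nuf2* for *Setdb1* (0.63). Each is the highest of 5281 candidates.

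Of 53 other heterochromatin genes, 50 were measured and 34 had a mean of at least 8. Between KO and WT, 5 of the 34 were higher and 2 lower by at least 1, beside 13.5% and 8.32% of all genes. The counts were 2 and 3 between KO and het of run 3 (15.2% and 10.1% of all), and 4 and 7 between het and WT of run 2 (10.8% and 15.4% of all). Over all 50, 4 differed by at least 1 with the same sign from both WT and het of run 3, and 7.29% of all 18194 genes did so. Both of these comparisons use the same 4 cells labelled KO. *Jmjd1c*, an H3K9 demethylase relative of *Kdm3a*, was at 10.32 to 10.89 in cells labelled KO, from 0 to 9.24 in het of run 3 and from 0 to 10.77 in WT of run 1, so the KO and WT cells overlapped. Its differences were 2.36 (pooled SD 1.60) from WT and 3.09 (pooled SD 1.10) from het of run 3. *Kdm4b*, an H3K9me3 demethylase, was at 6.90 to 8.66 in cells labelled KO and at or below the floor in 5 of 6 het cells of run 3. It ranged from 0 to 9.28 in WT of run 1, 0 to 6.45 in WT of run 2 and 0 to 8.72 in het of run 2. *Phf2*, a PHD finger relative of the H3K9 demethylases, was listed at 0 in all 4 cells labelled KO and also in all 7 labelled het of run 2. It ranged from 0 to 10.16 in het of run 3, 0 to 9.91 in WT of run 1 and 0 to 6.09 in WT of run 2. For *Kdm4b* and *Phf2* the size of a difference is set by the floor, and none is given. *Uhrf1*, which recruits DNMT1 and binds methylated H3K9, was at 0 to 8.56 in cells labelled KO, 0 to 11.21 in WT of run 1, 10.76 to 11.27 in WT of run 2 and 0 to 11.80 in het of run 3. Its differences were -2.02 (pooled SD 1.77) from WT and -1.45 (pooled SD 2.14) from het of run 3, the latter within the spread, and the groups overlapped. Of the 34 genes, 3 had r at or below -0.4 with the germ cell score and 1 at or above 0.4, beside 6.99% and 7.01% of all genes. *Uhrf1* had r = -0.53 with this score, at -0.16, -0.59 and -0.67 in runs 1 to 3. Its r with the somatic mesoderm score was 0.54.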

How the data were processed

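Single-cell cDNA of 30 PGCs was hybridised to Affymetrix mouse genome arrays. The authors calculated MBEI with dChip from perfect-match and mismatch probes and deposited log2 values, used here as they stand. Scaling of the arrays to each other was not given in the sources used here. Of 45101 probe sets, 34958 had 1 gene symbol in the platform annotation, 932 had several and 9211 were not listed. The brightest probe set with 1 symbol stood for a gene. Symbols checked against RefSeq (GRCm38.p6) by gene identifier gave 0 changes. Values were floored at 6 (64 MBEI), with floors of 4 and 8 as alternatives. Differences are between means over cells, with the pooled SD between cells. Each label counts as 1 sample, so no test was run. Correlations are over 30 cells. Fewer pairs than planned, 36, could be formed, since *Cbx3* had no probe set of its own above the floor. No 2 arrays held identical values (0 pairs), and r between arrays was 0.578 to 0.737. Named genes were the 10 members, other heterochromatin genes differing by at least 1 with the same sign from WT and from het of run 3, and for each member above the floor in at least 15 cells the most correlated gene. The members and lists were chosen with earlier results of these data known. Alternatives were quantile normalization, a shift to equal medians over the 3239 probe sets above 0 on all arrays, medians over cells, all probe sets of a gene, the run as a block, and leaving out single cells. In the differences, the cells left out were those labelled KO or, for het minus WT, the WT cells of run 2. The scripts were tested on simulated data that lay well above the floor. That test covered the arithmetic of differences and correlations and not the handling of floored values. The tools were pandas 2.3.3, NumPy 2.4.6 and matplotlib 3.10.9 under Python 3.11.15.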

Additional observations from a re-analysis of the deposited data

Results flagged for a closer look

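In 6 of 40 combinations of a member (or the mean over members) and a group of 4 to 10 cells with the same label and run, 1 cell lay far below the others. Its gap to the next cell is given as a share of the range of the group. The limit on this share was set for about 1 in 20 groups to pass it by chance, and served only to pick cells for listing. That rate was not checked for single-cell values, some of them floored. The combinations are also not independent, since the mean over members is made from the same values. The count of 6 of 40 is therefore a description and is not compared with chance. *Ehmt1* was at the floor of 6 in 1 cell labelled KO, with the next at 9.04 (gap 0.893 of the range, n = 4). The size of this gap depends on the floor, and with a floor of 8 it was 0.741, under the limit of 0.829. *Setdb1* was at 8.82 in another cell labelled KO, with the next at 10.11 (0.842, n = 4), and at 8.20 in 1 cell labelled WT of run 1, with the next at 9.38 (0.47, n = 10). *Trim28* was at 11.90 in 1 cell labelled het of run 2, with the next at 12.57 (0.801, n = 7). *Cbx1* was at 8.32 in another cell of that group, with the next at 10.24 (0.575, n = 7). *Cbx5* was at 10.27 in 1 cell labelled het of run 3, with the next at 11.69 (0.838, n = 6).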

How the results depend on the processing

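The mean over the 9 members kept its sign under all 35 alternatives and moved by less than 1 SD under 34. The SD here is the pooled SD between cells (0.43, 0.40 and 0.36 in the 3 comparisons). For KO minus WT and KO minus het it is larger than the difference itself, so this limit is loose. The exception was KO minus WT with the run as a block, -0.67 in place of -0.22, which by its construction uses only the 3 WT cells of run 2. Leaving out single KO cells gave -0.37 to -0.06 for KO minus WT and -0.33 to -0.03 for KO minus het in run 3. Leaving out single WT cells gave -0.64 to -0.27 for het minus WT in run 2. No cell labelled het was left out of a difference. With all cells labelled het, KO minus het was -0.04 in place of -0.18, and over all runs het minus WT was -0.17 in place of -0.49. Adding the shared *Cbx3* probe set, chosen after seeing the data, gave -0.21, -0.17 and -0.46. The median correlation between members stayed between -0.06 and -0.01. For single members, 285 of 288 values moved by less than 1 SD. This limit is loose as well, since *Ehmt1*, KO minus WT, counted as unmoved at -3.09 in place of -1.80 (pooled SD 1.68). Of the differences of at least 1 in size, 0 changed sign. Some smaller differences did, such as *Cbx1*, het minus WT in run 2, at 0.37 in place of -0.66 with all its probe sets averaged. The third exception beside the block values of *Cbx1* and *Cbx5* was *Cbx5*, KO minus het, at 0.19 with all cells labelled het. *Ehmt1*, KO minus het of run 3, was -2.02 with medians over cells and -0.70 with all cells labelled het, and het minus WT was -1.10 over all runs. *Kdm3a*, het minus WT, was -0.87 with medians and -0.98 over all runs. The alternatives for the germ cell score and for *Ehmt1* with *Cbx5* were chosen after seeing the data. Over them r was -0.61 to -0.43 for *Ehmt1*, -0.62 to -0.34 for *Cbx5*, 0.25 to 0.78 for *Kdm3a*, and 0.49 to 0.88 for *Ehmt1* with *Cbx5*. With the median correlation between members included, 16 of 46 alternative values moved by at least the largest shift from leaving out 1 cell. Of the 46, 0 changed sign. No paired analysis was possible because the results come from no test and the labels tie no cells of different labels together.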
